A study of Mus musculus with 10 samples.

Results

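iB-Tregs (C), regulatory T cells (Tregs) co-cultured on astrocytes with a cocktail of 4 added factors, were compared with iB-Tregs (A), Tregs co-cultured on astrocytes with T cell stimulation and IL-2 only. The comparison takes 4 of the 10 RNA-seq libraries of the series, 2 in each group, and the 2 libraries of iB-Tregs (B) were kept in the same fit, so that 6 libraries set the spread. In all 3 groups, CD4 T cells carrying hCD2, a human surface protein that reports Foxp3 in Foxp3-hCD2 knock-in mice, were taken from spleen and lymph nodes and laid for 6 days on primary glial cells from neonatal mouse brain, most of which were astrocytes. T cell stimulation was the same in all of them, by anti-CD3 and anti-CD28 (each 2 μg/ml) with 20 ng/ml IL-2. iB-Tregs (C) received in addition IL-33 at 20 ng/ml, serotonin at 10 μM, and the chemokines CCL1 and CCL20 at 20 ng/ml each. iB-Tregs (B) received the same IL-33 and serotonin without the chemokines, and iB-Tregs (A) received none of the 4 factors. The question was whether factors found in the brain give Tregs with genes of brain Tregs in vitro. The difference between (C) and (A) covers the 4 factors together, and the share of each factor in it cannot be told apart from these 2 groups. After co-culture the cells were taken from the glial layer with magnetic beads against hCD2. Whether both libraries of a group stem from separate cultures is not given by the labels, so that p-values reflect only how far these libraries differ, a spread that may be technical.

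Tregs restrain other immune cells and depend on the transcription factor Foxp3, and those that settle in tissues acquire further genes of repair and of type 2 immunity. IL-33 is an alarmin that injured tissue releases, and it acts through the receptor ST2, the product of Il1rl1, which tissue Tregs, type 2 helper cells and some macrophages carry. CCL1 and CCL20 attract cells with the receptors CCR8 and CCR6, and serotonin acts on a family of receptors encoded by Htr genes, of which Htr7 has been described in brain Tregs. Macrophages exposed to the type 2 cytokines IL-4 and IL-13 take on an alternative activation state, with arginase and chitinase-like proteins among its best known products in mice.

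The libraries were alike in depth, with total counts from 15649512 to 16151684 in (C) and from 15628261 to 16388161 in (A), and with 20396 to 20718 genes that had a count over the 6 libraries. Levels are given as CPM, the counts in a library scaled to a total of 1000000, after scaling by trimmed mean of M values (TMM). T cell genes were present in every library, and of 16 T cell markers 3 were higher and 5 lower in (C). Over all tested genes, 18.2% were higher and 16.6% lower in (C) at the same threshold, which is given below. The T cell receptor constant gene Trac had 408 and 415 CPM in (C), against 420.3 and 418 CPM in (A), and Cd3e had 187 and 179 CPM in (C), against 184 and 200.5 CPM in (A). Markers of microglia and macrophages were also found in every library, and all 22 of the list were measured. They summed to 10975 and 11677 CPM in (C), against 7214 and 6958 CPM in (A), and 15 of them were higher and 4 lower in (C). Lysozyme (Lyz2), a granule enzyme of myeloid cells, had 4815 and 5138 CPM in (C), against 3375 and 3201 CPM in (A). The libraries labelled as Tregs thus held RNA of myeloid cells in both groups, and in bulk samples more cells of a type and more RNA per cell cannot be told apart. Astrocyte markers summed to 7717 and 8235 CPM in (C), against 6592 and 5934 CPM in (A), most of which was Apoe and Vim, genes that other cells also use. Gfap, the filament protein that defines astrocytes, had 1.96 and 1.05 CPM in (C), against 3.27 and 2.65 CPM in (A).

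Most of the changes with the cocktail were small. Of 14713 genes tested with the quasi-likelihood test of edgeR and Benjamini-Hochberg adjustment, 2682 (18.2%) were higher and 2439 (16.6%) were lower in (C) than in (A) at an adjusted p under 0.05. Counts over gene lists in (C) against (A) are to be read beside these shares, which some of them do not exceed. Among the higher genes, 608 differed by over 2-fold, 184 by over 4-fold and 87 by over 8-fold. Among the lower genes, these numbers were 292, 88 and 25, so the large changes were more often rises. The median size of a called change was 1.38-fold for rises and 1.28-fold for falls, and the median log2 fold change of all tested genes was 0.01. Higher genes made up 52.4% of the calls, but 36.4% when the libraries were scaled by their total count alone, so the balance of small changes rests on the scaling. The coefficient of variation between libraries of a group beyond counting noise was 3.93%, which is low and allowed small differences to pass. Whether this spread is biological or technical is not given by the labels.

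**Figure D1:**
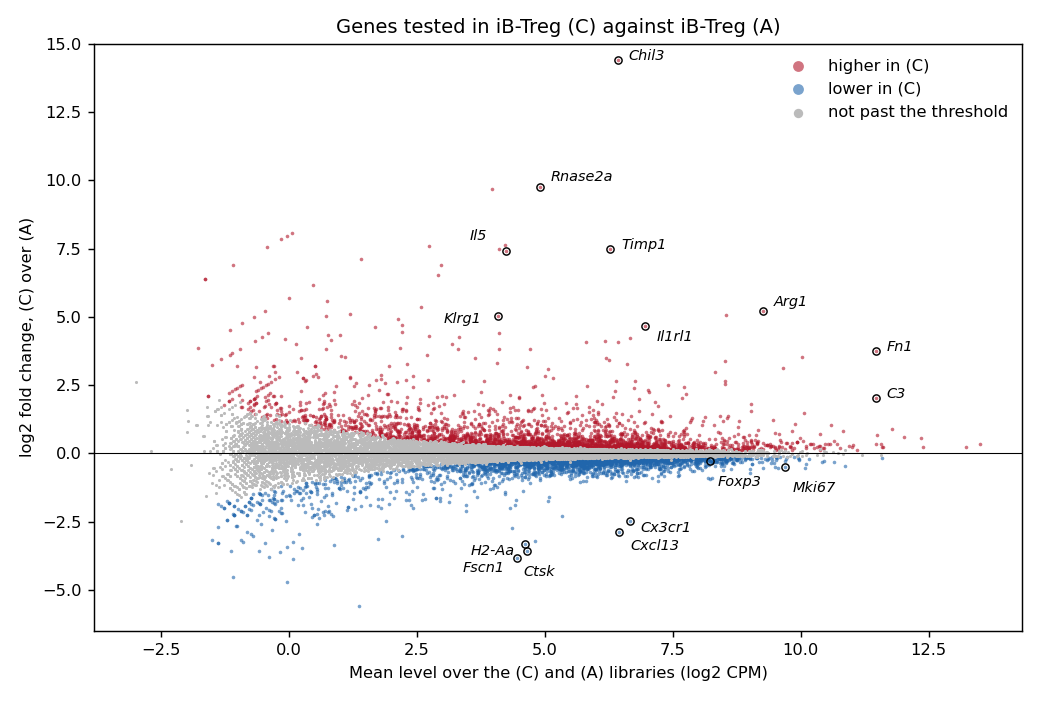
Fold change of every tested gene in iB-Treg (C) over iB-Treg (A), with the mean level over the 4 libraries on the x axis (log2 CPM) and the fitted log2 fold change on the y axis. Red points are the 2682 higher genes, blue points the 2439 lower genes, grey points the genes that did not pass, and circles mark named genes. Rises reach further from 0 than falls, and Chil3 at the top had no count in (A), so its fitted value is no measure of size.

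The receptor of IL-33 changed most among the receptors of the added factors. Il1rl1, which encodes ST2 (ENSMUSG00000026069, chromosome 1 from 40429570 to 40465415 of GRCm38, plus strand), had 244 and 236 CPM in (C), against 8.87 and 10.2 CPM in (A). The groups lay far apart, at a log2 fold change of 4.65 (SE, the standard error, 0.07, edgeR adjusted p = 2.6e-22). Il1rap, the co-receptor of ST2, had 16.6 and 14.2 CPM in (C), against 10.5 and 11 CPM in (A), with a log2 fold change of 0.52 (SE 0.12, adjusted p = 0.0021). Il33 itself was near the limit of detection, at 0.378 and 0.719 CPM in (C) against 0.774 and 0.617 CPM in (A), and did not pass (adjusted p = 0.65). Of the 30 tested genes of IL-33 signalling and nuclear factor κB, 11 were higher, 5 lower and 14 did not pass, with a median log2 fold change of 0.07. With DESeq2, 3 were lower. When a change of over 1.2-fold was required, 5 were higher and 1 lower. The list includes regulators that feed back on the pathway. Zc3h12a, an RNase that degrades inflammatory transcripts, was higher with a log2 fold change of 0.63, while Tnip3, a binding partner of the inhibitor A20, was lower with -0.81.

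Receptors of the chemokines differed less. Ccr8, the receptor of CCL1, had 115 and 114 CPM in (C), against 91.6 and 90.9 CPM in (A), a log2 fold change of 0.33 (SE 0.05, adjusted p = 3.8e-05). Ccr6, the receptor of CCL20, stood at 2.52 and 2.09 CPM in (C), against 1.25 and 0.988 CPM in (A), a log2 fold change of 1.04 (SE 0.33, adjusted p = 0.017). The call of Ccr6 was lost without iB-Treg (A) replicate 2, where the log2 fold change was 0.88, without iB-Treg (C) replicate 1, where it was 0.89, and with DESeq2. Neither gene of the added chemokines passed. Ccl1 had 1 count in (C) and 3 counts in (A), too few to be tested, and Ccl20 had 1.51 and 1.70 CPM in (C), against 1.37 and 1.23 CPM in (A) (adjusted p = 0.56).

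Genes of serotonin receptors, synthesis and breakdown were mostly at or near 0, since 20 of the 25 listed were too low to be tested and 13 had no count in the (C) and (A) libraries. Htr7, the receptor named for brain Tregs, had 1 count in (C) and none in (A), which at this depth allows a level of up to 0.192 CPM in a library with no count. Htr1b, a receptor that lowers cAMP, had 1.07 and 1.83 CPM in (C), against 0.238 and 0.432 CPM in (A), a log2 fold change of 2.09 (SE 0.53, adjusted p = 0.0036). Without iB-Treg (C) replicate 2 it was 1.66 and did not pass. Htr2b, a receptor coupled to calcium release, had 2.40 and 2.68 CPM in (C), against 1.13 and 0.864 CPM in (A), with a log2 fold change of 1.34 (adjusted p = 0.0023). Tph1, the rate-limiting enzyme of serotonin synthesis outside neurons, was lower, at 15.7 and 17.9 CPM in (C) against 50.7 and 50.6 CPM in (A), a log2 fold change of -1.59 (SE 0.09, adjusted p = 2.0e-12). Of 23 tested cAMP-responsive genes, 12 were higher and 2 lower, or 4 lower without iB-Treg (A) replicate 1 and 6 with scaling by total count. They included Crem, a transcription factor that cAMP induces, with 0.89, and the phosphodiesterase gene Pde3b with 1.56.

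Genes that mark Tregs of tissues were mostly higher with the cocktail, while genes of Treg identity were more often lower than higher. Of 23 tested genes that the study used to describe brain Tregs, 15 were higher and 3 lower, while 5 did not pass, and the median log2 fold change was 0.75. How these genes were chosen, and whether these samples were used for it, is not given in the sources used here, so the count is not taken as independent evidence of a direction. Klrg1, a receptor of differentiated effector cells (chromosome 6 from 122270596 to 122282882, minus strand), had 31.7 and 33.9 CPM in (C), against 0.833 and 1.17 CPM in (A), a log2 fold change of 5.02 (SE 0.16, adjusted p = 1.1e-16). Areg, the gene of amphiregulin, a growth factor of tissue repair, had 7.95 and 9.02 CPM in (C), against 1.13 and 1.48 CPM in (A), a log2 fold change of 2.69 (SE 0.22, adjusted p = 2.4e-09). Both genes were separated between the groups by far more than the spread of the libraries. Ednrb, the endothelin receptor type B, had 19.8 and 16.5 CPM in (C), against 2.38 and 3.40 CPM in (A), with a log2 fold change of 2.65. Il10, which encodes an inhibitory cytokine, had 10.7 and 12.7 CPM in (C), against 3.93 and 3.09 CPM in (A), with 1.74. Penk, the precursor of enkephalins, had 15.5 and 16.1 CPM in (C), against 4.70 and 5.99 CPM in (A), with 1.56. Npy, which encodes neuropeptide Y, was too low to be tested. The libraries also held RNA of myeloid cells, and the part of cells other than Tregs in the rises of this set was not tested. The set also holds Lef1, Tcf7 and Bcl2, which the study describes as lower in tissue Tregs than in lymphoid Tregs. Of these, Tcf7 and Bcl2 did not pass, at log2 fold changes of 0.03 and 0.08. The 3 lower genes of this set were Foxp1, Lef1 and Ccr4, at -0.46, -0.23 and -0.23, and the calls of Lef1 and Ccr4 were lost with DESeq2. Without iB-Treg (A) replicate 2, Lef1 was at -0.21 and Ccr4 at -0.10, and without iB-Treg (C) replicate 2 they were at -0.25 and -0.19, where neither passed, so that 1 gene was lower in each case. Lef1 did not pass without iB-Treg (C) replicate 1 either, at -0.21.

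Transcription factors of tissue Tregs moved in 1 direction with 1 exception. The list had 18 tested genes, 15 of them higher, 1 lower and 2 not past the threshold (median log2 fold change 0.68). Pparg, a nuclear receptor on which Tregs of adipose tissue depend, had 11 and 12.9 CPM in (C), against 2.86 and 2.90 CPM in (A), a log2 fold change of 2.05 (SE 0.17, adjusted p = 2.1e-09). Gata3, the master factor of type 2 helper cells, had 134 and 142 CPM in (C), against 73.4 and 80.6 CPM in (A), a log2 fold change of 0.84 (SE 0.06, adjusted p = 1.3e-10). Further rises were those of Maf (1.17), Rora (1.15), Ahr (1.13), Prdm1 (1.04) and Batf (0.75). Pparg and Maf are also used by macrophages, whose markers were higher in (C) in 15 of 22 cases, and the part of these cells in the result was not tested.

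Among Treg identity genes, 3 of 20 were higher, 7 lower and 10 did not pass, with a median log2 fold change of -0.05. When a change of over 1.2-fold was required, 0 were higher and 3 lower. Foxp3 itself had 269 and 275 CPM in (C), against 331 and 329 CPM in (A), a log2 fold change of -0.28 (SE 0.04, adjusted p = 4.0e-05). Il2ra, the high-affinity chain of the IL-2 receptor, had 1237 and 1203 CPM in (C), against 1474 and 1579 CPM in (A), with -0.32 (SE 0.04, adjusted p = 5.2e-06). The larger falls of this list were Gpr83, an orphan receptor of Tregs, at -0.95, and Nrp1, a co-receptor of semaphorins, at -0.64. T cell markers did not follow 1 direction, since 3 of 16 were higher, 5 lower and 8 did not pass (median log2 fold change -0.05), with Cd4 higher at 0.30 and the surface glycoprotein gene Thy1 lower at -0.50. The number of lower T cell markers was 8 with scaling by total count, 3 without iB-Treg (A) replicate 1 and 2 without iB-Treg (C) replicate 1, and the number of higher ones was 1 without iB-Treg (C) replicate 2.

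**Figure D2:**
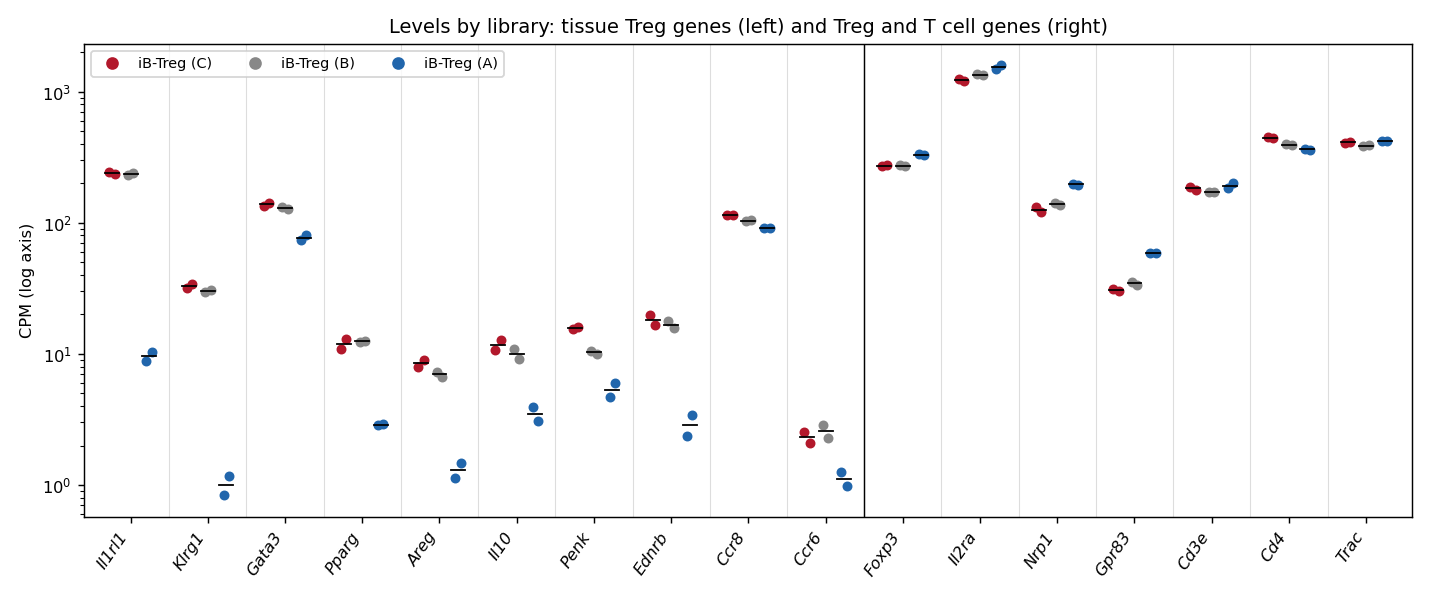
CPM in each library, on a log axis, of 10 tissue Treg genes to the left of the vertical line and of 7 Treg and T cell genes to its right, with iB-Treg (C) in red, iB-Treg (B) in grey and iB-Treg (A) in blue. Each point is 1 of 2 libraries and each short line their mean. Il1rl1 and Klrg1 stand well above (A) in both (C) libraries, whereas Foxp3 and Il2ra lie slightly below (A) and Trac close to it.

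Effector genes were mostly higher and genes of naive and recirculating T cells mostly lower. Of 22 tested effector receptor and effector genes, 15 were higher and 2 lower in (C). Tnfrsf8, which encodes CD30, had 105 and 106 CPM in (C), against 6.61 and 5.87 CPM in (A), a log2 fold change of 4.08 (SE 0.09, adjusted p = 6.9e-20). Icos, a co-stimulatory receptor, had 334 and 338 CPM in (C), against 137 and 136 CPM in (A), with a log2 fold change of 1.30, and the granule protease gene Gzmb had 192 and 206 CPM in (C), against 74.0 and 71.9 CPM in (A), with 1.45. On the other side, 10 of 17 tested naive T cell genes were lower, 3 higher and 4 did not pass. The number of lower ones was 6 when a change of over 1.2-fold was required. Id3, an inhibitor of E proteins, was lower with a log2 fold change of -1.09, and Klf2, which sustains recirculation, with -0.86. The exceptions were Il7r, the IL-7 receptor, at 0.99, and Satb1, a chromatin organizer, at 0.74.

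Il5 and Il13 had a few counts in (A) and were well detected in (C). Of 13 tested genes in this list, 9 were higher, 1 lower and 3 did not pass, with a median log2 fold change of 1.13. Il5, the growth factor of eosinophils (chromosome 11 from 53720794 to 53725106), had 36.5 and 38.2 CPM in (C), against 0.357 and 0.0617 CPM in (A), a log2 fold change of 7.41 (SE 0.22, adjusted p = 3.1e-17). Il13, a cytokine of barrier tissues that lies nearby (chromosome 11 from 53631324 to 53634702), had 13.7 and 16 CPM in (C), against 0.238 and 0.0617 CPM in (A). The (A) value of Il13 stands on 5 counts in all, and the ratio of its counts was 98.1 (95% counting interval 41.7 to 303). Il4, their neighbour in the type 2 cytokine locus, had 2.90 and 3.20 CPM in (C), against 0.714 and 0.556 CPM in (A), with a log2 fold change of 2.25 (SE 0.34, adjusted p = 1.6e-05). The IL-9 receptor gene Il9r rose with 1.76. Mast cells and basophils also make such cytokines. The listed markers of mast cells, basophils and neutrophils summed to 8.89 and 8.49 CPM in (C), against 11.2 and 12.7 CPM in (A). Of the 10 genes, 5 had no count in either group, and of the 2 that were tested 1 was higher and 1 lower in (C). The part of these cells, or of others such as type 2 helper cells, in the cytokine rises was not tested.

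**Figure D3:**
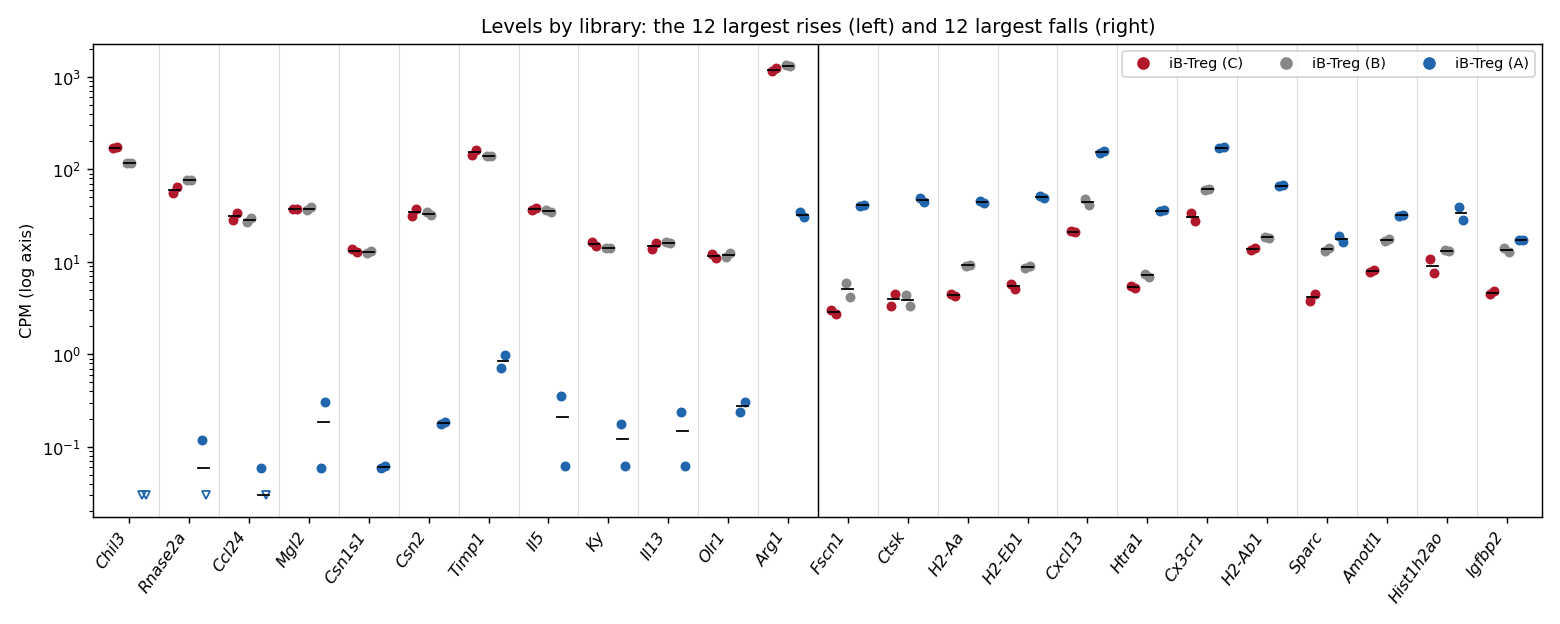
CPM in each library, on a log axis, of the genes with the 12 largest rises (left of the vertical line) and the 12 largest falls (right of it) in (C) against (A), with iB-Treg (C) in red, iB-Treg (B) in grey and iB-Treg (A) in blue. Each point is 1 library, each short line the mean of 2, and an open triangle at the bottom a library with no count. No (C) library overlaps an (A) library for any of the 24 genes, which the choice of these genes required.

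The largest rises by fold change, among genes that reached 10 CPM, included several secreted proteins. Chil3, a chitinase-like protein of macrophages also called Ym1 (chromosome 3 from 106147554 to 106167564, minus strand), had 171 and 173 CPM in (C) and no count in either (A) library. Against a floor of 3 counts over both (A) libraries, it was at least 1891-fold higher in (C). Rnase2a, an eosinophil-type ribonuclease of macrophages, had 55.3 and 63.9 CPM in (C), against 0.119 and 0 CPM in (A), a ratio of 982 (95% counting interval 272 to 8117). Chil3 and Rnase2a have close paralogs, among which reads may have been divided. Ccl24, a chemokine of eosinophils, had 28.6 and 34.0 CPM in (C) and a single count in (A), a ratio of 1032 (95% counting interval 185 to 40784). High folds were also found for Mgl2, a lectin of alternatively activated macrophages, at 37.5 and 37.1 CPM in (C) against 0.0595 and 0.309 CPM in (A), and Timp1, an inhibitor of matrix proteases, at 145 and 163 CPM in (C) against 0.714 and 0.988 CPM in (A). Their log2 fold changes were 7.62 and 7.49. Arg1, the arginase that defines alternative activation in mice (chromosome 10 from 24915221 to 24927484), had 1144 and 1234 CPM in (C), against 34.4 and 30.3 CPM in (A), a log2 fold change of 5.20 (SE 0.06, adjusted p = 1.1e-23). Olr1, a receptor of oxidized lipoprotein, rose with 5.38, and Ky, a muscle protein gene, with a ratio of 129 (95% counting interval 49.9 to 474).

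A pair of milk protein genes was among these rises. Csn2, which encodes β-casein, had 31.2 and 37.3 CPM in (C), against 0.179 and 0.185 CPM in (A), a log2 fold change of 7.50 (SE 0.23, adjusted p = 5.9e-17). Csn1s1, which encodes an α-casein, had 13.7 and 12.7 CPM in (C), against 0.0595 and 0.0617 CPM in (A), a ratio of 218 (95% counting interval 60.0 to 1807) on 2 counts in (A). The genes lie on chromosome 5, Csn1s1 from 87666208 to 87682578 and Csn2 from 87692624 to 87699630. Casein genes are classical targets of the transcription factor STAT5, which IL-2 activates in T cells and prolactin in the mammary gland. Both promoters hold the palindrome TTCNNNGAA that STAT5 binds, searched on both strands, at a like distance from the start site, 93 bases before it in Csn2 and 100 bases before it in Csn1s1. Among all 32851 RefSeq promoters of this length, 8.30% hold a match, and a match is a description of the sequence and not a sign of binding. The search covered 6 promoters of 5 genes, and 3 held a match, those of Csn2, Csn1s1 and Cish, a known target of STAT5. These genes were chosen by hand with known targets of STAT5 among them, so the number of matches cannot be set against that share. Both promoters of Il1rl1 and that of Areg, genes that rose like the caseins, held none. The casein promoters are shown because these genes rose together. Each sequence runs from 250 bases before to 50 bases after the RefSeq start site on GRCm38.p6, in the direction of transcription (chr5:87699376-87699675, minus strand, for Csn2 and chr5:87665958-87666257, plus strand, for Csn1s1), with the palindrome in capitals.
Csn2: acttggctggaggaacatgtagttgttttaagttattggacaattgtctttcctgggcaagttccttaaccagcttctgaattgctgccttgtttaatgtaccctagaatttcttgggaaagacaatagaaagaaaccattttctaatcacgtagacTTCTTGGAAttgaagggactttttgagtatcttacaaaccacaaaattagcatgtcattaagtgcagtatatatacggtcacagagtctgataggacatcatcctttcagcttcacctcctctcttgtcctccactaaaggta
Csn1s1: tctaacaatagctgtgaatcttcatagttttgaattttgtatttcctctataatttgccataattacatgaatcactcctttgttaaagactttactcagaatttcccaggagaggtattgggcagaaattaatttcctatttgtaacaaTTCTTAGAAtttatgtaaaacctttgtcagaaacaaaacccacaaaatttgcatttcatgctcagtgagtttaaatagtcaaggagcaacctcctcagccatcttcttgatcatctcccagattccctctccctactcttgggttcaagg
In a list of other STAT5 feedback genes, which IL-2 is known to induce, 9 of 16 were higher and 2 lower. With scaling by total count, 4 were lower. The median log2 fold change was 0.17, and IL-2 was at 20 ng/ml in both (C) and (A). The part of STAT5 in these changes was not tested. Bcl2l1, a survival factor, was higher with a log2 fold change of 1.27, and Socs2, an inhibitor of cytokine signalling, was lower with -0.36.

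Genes of alternative macrophage activation rose as a group. The list had 19 tested genes, 17 of them higher, 1 lower and 1 not past the threshold, with a median log2 fold change of 3.40, or 2.82 with the genes that had no count in (A) held at a floor of 3 counts. Besides Chil3, Arg1, Mgl2 and Ccl24, the group included Ccl17, a chemokine that attracts CCR4-bearing T cells, with 1.70 and 1.24 CPM in (C) and no count in (A), at least 16.2-fold higher. The scavenger receptor gene Cd163 had 2.08 and 1.83 CPM in (C), against 0 and 0.0617 CPM in (A), a ratio of 64.6 (95% counting interval 11.2 to 2593). Egr2, a transcription factor of this state, had 132 and 126 CPM in (C), against 31.1 and 31.1 CPM in (A), a log2 fold change of 2.05. It is also on the list of immediate early genes, and which cells its rise came from was not tested. The microglia and macrophage markers summed to 11326 ± 496 CPM in (C), against 7086 ± 182 CPM in (A) (SD, n = 2 each), a sum to which Lyz2 contributed most, and they did not all move in the same direction. Fcgr3, an Fc receptor, rose with a log2 fold change of 2.34, Trem2, a lipid receptor of microglia, with 1.42, and Cd68, a lysosomal protein, with 1.15. The microglial genes Cx3cr1 and Tmem119 were lower instead, at -2.48 and -0.70, and P2ry12, another microglial gene, did not pass at 0.15 (adjusted p = 0.59). The part of a change in cell number in these results was not tested.

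Inflammatory macrophage genes were divided, with 9 of 18 higher, 6 lower and 3 not past the threshold. The cationic amino acid transporter gene Slc7a2 had 145 and 129 CPM in (C), against 6.96 and 9.01 CPM in (A), a log2 fold change of 4.10. The interleukin 1 genes Il1a (2.41) and Il1b (1.99) rose, and their antagonist Il1rn (2.12) rose as well. Both Il12b and Cxcl9, products of macrophages in type 1 responses, were lower. Il12b, a subunit of IL-12, had 0.0631 and 0.131 CPM in (C), against 5.18 and 4.88 CPM in (A), a ratio of 0.0191 (95% counting interval 0.00391 to 0.0569) on 3 counts in (C). Cxcl9, a chemokine of type 1 immunity, had 0.378 and 0.980 CPM in (C), against 5.24 and 6.79 CPM in (A), a log2 fold change of -3.14 (SE 0.33, adjusted p = 1.3e-07). Over the 36 tested interferon response genes, 18 were higher and 6 lower, among them Oas2, an antiviral sensor, at 0.90, and Iigp1, an interferon-γ-inducible GTPase, at -0.66.

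Genes of the major histocompatibility complex (MHC) class II chains were lower in (C). H2-Aa had 4.54 and 4.31 CPM in (C), against 45.2 and 43.2 CPM in (A), a log2 fold change of -3.32 (SE 0.11, adjusted p = 4.5e-16). H2-Eb1 had 5.74 and 5.10 CPM in (C), against 52.0 and 48.7 CPM in (A), with -3.21 (SE 0.11, adjusted p = 3.7e-16), and H2-Ab1 had 13.3 and 14.1 CPM in (C), against 65.5 and 67.4 CPM in (A), with -2.28 (SE 0.08, adjusted p = 1.6e-15). These 3 genes encode the chains that present peptides to CD4 T cells, and they were well apart between the groups. Ciita, the co-activator that switches on the whole family, had 1.14 and 1.63 CPM in (C), against 4.28 and 4.20 CPM in (A), a log2 fold change of -1.61 (SE 0.34, adjusted p = 0.00064). Of 14 tested genes of the pathway, 7 were lower, 3 higher and 4 did not pass (median log2 fold change -0.30). A rise within the list was that of Ctss, a protease of peptide loading, at 1.47. Dendritic cells present peptides too, and of their 8 listed markers 3 could be tested and were higher, among them Itgax, which macrophages also express, with 132 and 137 CPM in (C) against 11.5 and 12.1 CPM in (A), while Fscn1, a gene of migrating dendritic cells, was lower with -3.82. The part of these cells in the class II falls was not tested. The promoters of H2-Aa and H2-Eb1 hold the Y box CTGATTGG, a CCAAT element known from class II promoters, which was searched on both strands and is found in 4.10% of all 32851 promoters. It begins 51 bases before the start site in H2-Aa and 62 bases before it in H2-Eb1. A match is a description of the sequence and not a sign of binding, and H2-Ab1 had no entry among the promoters searched. The promoters of H2-Aa and H2-Eb1 are shown because these genes had the largest falls of the family. Each runs from 250 bases before to 50 bases after the RefSeq start site on GRCm38.p6, with the Y box in capitals. The positions are chr17:34287774-34288073, minus strand, for H2-Aa and chr17:34305617-34305916, plus strand, for H2-Eb1.
H2-Aa: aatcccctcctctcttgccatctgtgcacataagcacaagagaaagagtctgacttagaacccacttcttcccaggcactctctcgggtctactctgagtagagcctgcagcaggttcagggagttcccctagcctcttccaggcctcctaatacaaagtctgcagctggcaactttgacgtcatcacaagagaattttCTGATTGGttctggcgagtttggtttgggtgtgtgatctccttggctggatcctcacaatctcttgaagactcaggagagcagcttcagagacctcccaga
H2-Eb1: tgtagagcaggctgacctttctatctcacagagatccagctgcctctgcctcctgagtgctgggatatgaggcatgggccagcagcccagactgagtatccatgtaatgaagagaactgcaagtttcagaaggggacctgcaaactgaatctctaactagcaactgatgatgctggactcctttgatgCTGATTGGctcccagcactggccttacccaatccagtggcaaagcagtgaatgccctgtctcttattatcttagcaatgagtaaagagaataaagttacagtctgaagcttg

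Fscn1, an actin-bundling protein of migrating dendritic cells, had 3.03 and 2.74 CPM in (C), against 40.3 and 41.2 CPM in (A), the largest fall among genes that reached 10 CPM, with a log2 fold change of -3.82 (SE 0.14, adjusted p = 2.2e-15). Ctsk, a collagen-degrading protease, had 3.34 and 4.51 CPM in (C), against 48.6 and 44.6 CPM in (A), with -3.57 (SE 0.13, adjusted p = 2.1e-15). The matrix protein gene Sparc fell with -2.11, the secreted protease gene Htra1 with -2.75, the binding protein of insulin-like growth factors Igfbp2 with -1.89, and the junction protein gene Amotl1 with -2.0. Hist1h2ao, a gene of replicating histones, fell with -1.89, and since histone genes are near copies of each other its counts may be shared with them. Astrocyte markers, of which 17 were tested, were lower in 10 cases and higher in 3 (median log2 fold change -0.97), and their sum was higher, 7717 and 8235 CPM in (C) against 6592 and 5934 CPM in (A). The part of glial RNA in these falls was not tested. Among them, the water channel gene Aqp4 had 0.631 and 0.588 CPM in (C), against 2.62 and 3.40 CPM in (A), with a log2 fold change of -2.29. Gfap was at -0.97 with an adjusted p of 0.020, which was lost with DESeq2, without iB-Treg (A) replicate 1 at -0.81 and without iB-Treg (C) replicate 2 at -0.60, and DESeq2 called 6 of the 10.

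Chemokine ligands rose in most cases, and the genes that fell were few. Among the 26 that were tested, 17 were higher and 5 lower, and 4 did not pass, with a median log2 fold change of 1.72. Ccl6, a myeloid chemokine, had 689 and 753 CPM in (C), against 20.9 and 21.5 CPM in (A), a log2 fold change of 5.09 (SE 0.06, adjusted p = 1.2e-23). The neutrophil chemokine gene Cxcl3 rose with 4.71 and Ppbp, a chemokine precursor of platelets and macrophages, with 3.61. Cxcl13, which attracts B cells, was lower, at 21.3 and 20.8 CPM in (C) against 152 and 157 CPM in (A), with a log2 fold change of -2.87 (SE 0.07, adjusted p = 1.3e-18). On the side of the receptors, 8 of 17 were higher and 3 lower. Cxcr6, a receptor of tissue-resident T cells, had 34.6 and 38.2 CPM in (C), against 10.1 and 7.72 CPM in (A), with 2.02, and the eosinophil and type 2 cell receptor gene Ccr3 rose with 1.92. Cx3cr1, the fractalkine receptor, had 33.9 and 27.4 CPM in (C), against 168 and 175 CPM in (A), with a log2 fold change of -2.48 (SE 0.07, adjusted p = 2.6e-17). Many of these chemokines are products of macrophages, whose markers summed to 10975 and 11677 CPM in (C), against 7214 and 6958 CPM in (A), and the part of these cells in the rises was not tested.

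Several of the largest gains in level were those of matrix, complement and carrier protein genes. Fn1, which encodes fibronectin, had 5531 and 5047 CPM in (C), against 391 and 404 CPM in (A), a log2 fold change of 3.73 (SE 0.05, adjusted p = 2.7e-23). Of 6 tested markers of fibroblasts, Fn1 was the 1 that rose, and Igfbp2 fell. C3, the central complement protein, had 4593 and 4482 CPM in (C), against 1131 and 1108 CPM in (A), with 2.02, and Trf, the gene of transferrin, which carries iron, had 1919 and 1933 CPM in (C), against 165 and 165 CPM in (A), with 3.54. Apoe, a lipid carrier of astrocytes and macrophages, had 6014 and 6531 CPM in (C), against 4519 and 3930 CPM in (A), with 0.57, and Psap, a lysosomal precursor protein, rose with 0.90. The translation factor gene Eef1a1, the gene with the most counts in every library, rose with 0.33. Complement genes were higher in 11 of 21 cases and lower in 5, with the factor B gene Cfb among the lower ones at -2.27. Spp1, which encodes osteopontin, had 1400 and 1491 CPM in (C), against 161 and 167 CPM in (A), with a log2 fold change of 3.14 (SE 0.05, adjusted p = 3.1e-22). Among 19 tested repair and growth factors, 10 were higher and 1 was lower. Igf1 rose with 1.67, and Gdnf, a neurotrophic factor of glia, was the lower gene, at 3.72 and 3.33 CPM in (C) against 11.5 and 12.1 CPM in (A). Of 20 matrix proteases and their inhibitors, 9 were higher and 4 lower, with Mmp12, the macrophage elastase, at 4.23 and Timp3 at -2.0. The part of macrophages, with 15 of 22 markers higher, in these gains was not tested.

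Genes of lipid handling were more often higher, and those of cholesterol synthesis more often lower. Of 24 tested genes of cholesterol efflux and lipid handling, 14 were higher and 2 lower, or 5 lower with scaling by total count. Dgat2, which makes triglycerides, had 44.3 and 45.7 CPM in (C), against 5.06 and 4.94 CPM in (A), a log2 fold change of 3.17 (SE 0.10, adjusted p = 1.8e-16), and the fatty acid binding protein gene Fabp4 rose with 2.16 and the fatty acid receptor gene Cd36 with 1.65. The sterol-sensing receptor gene Nr1h3 was lower with -1.68. Macrophages use many of these genes, and the part of their 15 higher markers in the result was not tested. Of 24 tested genes of cholesterol synthesis, 14 were lower, 1 higher and 9 did not pass, with a median log2 fold change of -0.28. These falls were small, such as -0.58 for the sterol transporter gene Stard4. The number of lower genes was 9 with DESeq2 and 2 when a change of over 1.2-fold was required. No gene of the list was higher under either setting.

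Cell cycle genes were lower almost throughout. Of 38 tested genes, 35 were lower, 2 higher and 1 did not pass, with a median log2 fold change of -0.66. Mki67, the proliferation marker Ki-67, had 715 and 661 CPM in (C), against 961 and 989.5 CPM in (A), a log2 fold change of -0.50 (SE 0.05, adjusted p = 1.2e-08). Ccnb1, the cyclin of mitosis, had 33.1 and 33.7 CPM in (C), against 68.3 and 70.2 CPM in (A), with -1.05 (SE 0.07, adjusted p = 8.9e-11), and Cdc6, a licensing factor of replication, was lower with -0.90. The 2 higher genes were the inhibitors of the cycle Cdkn1a and Cdkn1b, at 0.51 and 0.30, which are named because they are the exceptions and were chosen after their values were seen. Glycolysis genes were lower in 13 of 28 cases and higher in 5 (median log2 fold change -0.22). When a change of over 1.2-fold was required, 7 were lower and 2 higher. Ldha, lactate dehydrogenase, had 869 and 905 CPM in (C), against 1338 and 1251 CPM in (A), with -0.55, Pkm, pyruvate kinase, fell with -0.46, and Pfkfb3, which drives glycolytic flux, with -0.91. In these bulk libraries, microglia and macrophage markers were higher in (C) in 15 of 22 cases and lower in 4. The part of a change in cell mix in the cell cycle and glycolysis falls was not tested. The immediate early genes were higher in 13 of 22 cases and lower in 4, led by Ier3, a survival gene, at 2.77.

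**Figure D4:**
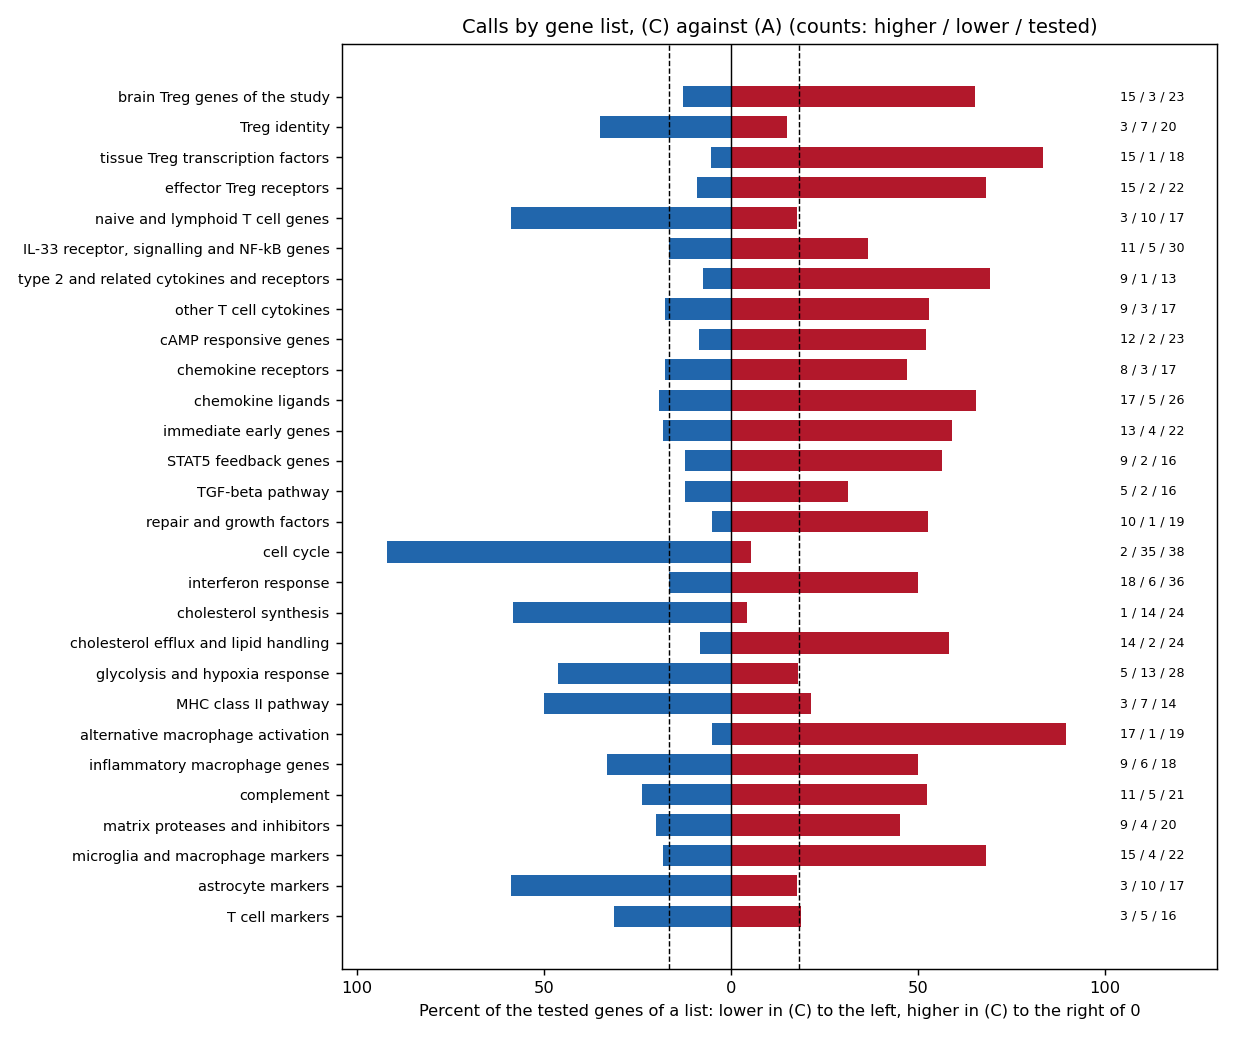
Calls in (C) against (A) for the 28 gene lists with at least 10 tested genes, as the percent of tested genes that were higher in (C) (red, to the right) or lower in (C) (blue, to the left), with the counts of higher, lower and tested genes beside each bar. Dashed lines give the percent over all tested genes, 18.2% higher and 16.6% lower. Alternative macrophage activation reaches furthest to the right and the cell cycle furthest to the left.

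Few genes differed between (C) and (B), which differ by the addition of CCL1 and CCL20, and these libraries of (C) are the same as those set against (A). Of the 14713 genes, 183 (1.24%) were higher and 343 (2.33%) lower in (C) than in (B), and over 2-fold differences were found in 1 gene that was higher and 44 that were lower. This count rests on single libraries. It was 88 without iB-Treg (B) replicate 1, 122 without iB-Treg (B) replicate 2, 366 without iB-Treg (C) replicate 1, 178 without iB-Treg (C) replicate 2, and 858 and 909 without iB-Treg (A) replicates 1 and 2, against 526 in the fit of all 6. Il1rl1 differed between (C) and (B) by a log2 fold change of 0.02 (adjusted p = 0.88), Klrg1 by 0.12 (adjusted p = 0.60), Il5 by 0.09 (adjusted p = 0.73), Arg1 by -0.15 (adjusted p = 0.092) and Ccr8 by 0.14 (adjusted p = 0.16), and none of them passed. The standard error of the difference was 0.05 for Il1rl1 and 0.09 for Klrg1. Other genes that rose in (C) against (A) did pass against (B), in both directions. Ccl6 was higher by 0.53 (edgeR adjusted p = 6.2e-07) and Spp1 by 0.43 (adjusted p = 4.1e-06). C3 differed by -0.40 (adjusted p = 2.3e-06) and Trf by -0.25 (adjusted p = 0.001).

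The genes that did differ between (C) and (B) included secreted proteins, a chemokine and a chemokine receptor. Mmp13, a collagenase, had 17.5 and 16.9 CPM in (C), against 9.92 and 9.57 CPM in (B), a log2 fold change of 0.82 (SE 0.13, adjusted p = 0.00051). Ch25h, which makes 25-hydroxycholesterol, had 33.9 and 29.9 CPM in (C), against 17.3 and 19.3 CPM in (B), with 0.80 (SE 0.10, adjusted p = 5.1e-05). Smaller rises were those of Hc, complement C5, at 0.64, Penk at 0.62, and Chil3 and Wfdc17, an antiprotease of myeloid cells, both at 0.56. Each of these genes was also higher in (C) than in (A). Sparc, a matrix protein made by astrocytes, had 3.78 and 4.44 CPM in (C), against 13.2 and 14.1 CPM in (B), with -1.73 (SE 0.15, adjusted p = 6.2e-07). Igfbp2 followed with -1.54, Igfbp5 with -1.50, Amotl1 with -1.11, Cxcl13 with -1.08 and Cx3cr1 with -0.98. Astrocyte markers were lower in (C) than in (B) in 9 of 17 cases and higher in none, and their sum was 7717 and 8235 CPM in (C), against 9789 and 9744 CPM in (B). Microglia and macrophage markers were lower in 11 of 22 cases and higher in none, with 10975 and 11677 CPM in (C), against 12524 and 12564 CPM in (B). The part of these cells in the differences was not tested. Tph1 and H2-Aa were lower in (C) than in (B) as well, with log2 fold changes of -0.83 and -1.04, and the adjusted p was 9.7e-06 and 0.00017.

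**Figure D5:**
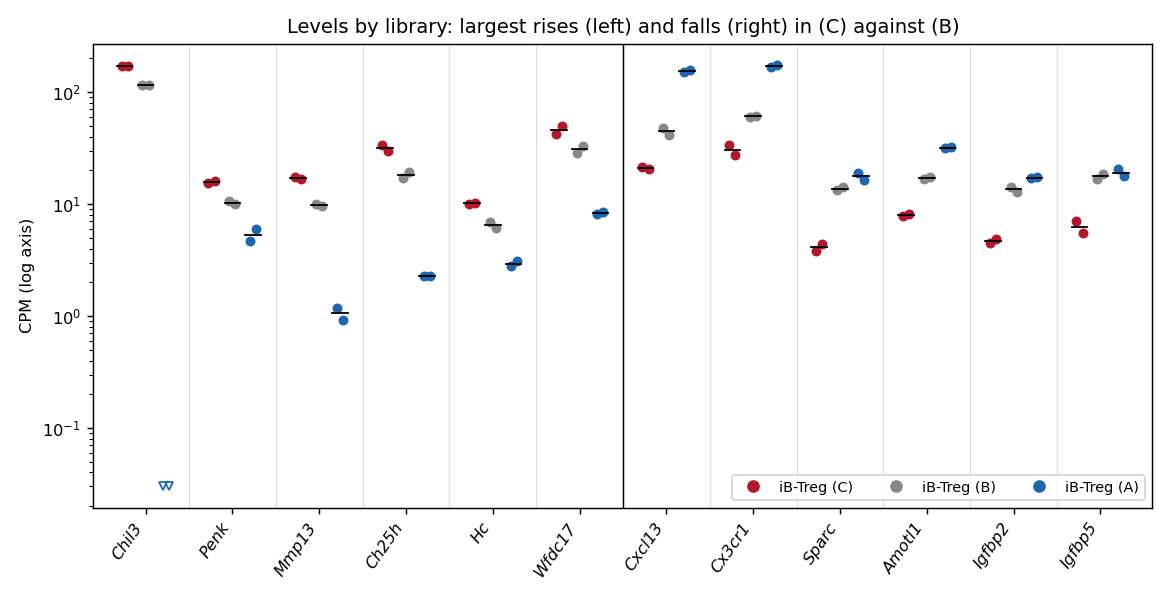
CPM in each library, on a log axis, of the 6 largest rises (left of the vertical line) and the 6 largest falls (right of it) in (C) against (B), with iB-Treg (C) in red, iB-Treg (B) in grey and iB-Treg (A) in blue. Each point is 1 library, each short line the mean of 2, and open triangles mark no count. The (C) libraries lie above (B) on the left and below (B) on the right for every gene shown, which their choice required, and the mean of (B) lies between those of (C) and (A) for all 12.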

How the data were processed

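RNA was measured by poly(A), strand-specific RNA-seq in hCD2+ cells. The deposited table holds whole-number counts per gene, which the authors made without normalization on GRCm38. The submitters' processing notes name HISAT2 (v2.0.1) and HTSeq (v0.6.1), the study's methods name featureCounts, and which made this table is not given in the sources used here. Of 55401 gene IDs, 55141 had a symbol in GENCODE vM21. The 6 iB-Treg columns were used and the 4 of spleen and brain Tregs were not. Genes passing filterByExpr (14713) were scaled by TMM and tested with the quasi-likelihood test of edgeR (v4.0.16, R v4.3.3, limma v3.58.1) and Benjamini-Hochberg adjustment. The procedure was tested on simulated data. Replicates differed beyond sampling noise and were kept apart. The members and lists were chosen with earlier results of these data known. Named genes were the 12 largest rises and falls among genes of at least 10 CPM (without predicted genes, pseudogenes and receptor segments), the 6 largest rises and falls in level, the study's brain Treg genes, the receptors and ligands of the added factors, up to 5 called genes of each list, genes that define a cell type, and the 6 largest rises and falls against (B). Fold changes against genes with few counts are ratios with exact counting intervals or, against no count, bounds from a floor of 3 counts over the group, and both cover counting error only. DESeq2 (v1.42.0), other scalings, other filters, a fold threshold, a replicate block and leaving out each library were alternatives. Some genes that the rule names are not reported here.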

Additional observations from a re-analysis of the deposited data

How the results depend on the processing

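Beside the 2682 rises and 2439 falls of (C) against (A) with edgeR, DESeq2 called 1784 rises and 1654 falls, of which 3432 in all were called by edgeR in the same direction. A requirement of over 1.2-fold left 2098 genes, 1242 higher and 856 lower. Scaling by total count alone gave 2055 rises and 3597 falls and moved the median of all genes to -0.06, so the higher genes were 36.4% of the calls. Leaving out 1 library gave 4054 to 4871 changed genes, 2147 to 2539 higher and 1896 to 2395 lower. The smaller contrast of (C) against (B) moved more. DESeq2 called 283 genes (102 higher, 181 lower), the 1.2-fold requirement left 36 (8 higher, 28 lower), the 4 compared libraries alone gave 867 (367 higher, 500 lower), and testing without a filter on low counts gave 760 (333 higher). Leaving out 1 library gave 88 to 909 changed genes, 20 to 397 higher and 68 to 512 lower. The cause of these differences was not tested. Whether the replicate numbers pair the libraries is not given by the labels. The correlations of deviations were -0.14 between (A) and (C), 0.11 between (A) and (B) and 0.05 between (B) and (C). Each group gave a single difference between replicates, so these values cannot decide it. The replicate block gave 5017 changed genes against (A), 2639 higher and 2378 lower, and 499 against (B), 177 higher and 322 lower. The crossed pairing, chosen after seeing the data, gave 5524 against (A) and 859 (366 higher) against (B). Of 130 named genes with a fold change, 117 kept their call under all alternatives, 13 did not, and 0 reversed. Of 74 counts over gene lists, 43 stayed within 1.5 times of their value and 31 did not under some alternative. With 2 libraries a group, genes of a few counts are the least certain.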
